A study of Homo sapiens with 6 samples.

Results

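The 47 genes described here run mitosis: the kinases that start it, the spindle and kinetochore proteins that move chromosomes, the checkpoint that holds anaphase back, and the proteins of the final cut between daughter cells. They were taken by symbol from a hand-written list, and each of the 47 was found among the 18768 genes of the count table. All 47 passed the filter on low counts, as did 13764 genes in all. HCT116 is an established human colorectal cancer cell line. Cells received an siRNA against the long noncoding RNA AC010789.1 (si-AC010789.1, 3 libraries) or a control siRNA with no such target (siRNA-NC, 3 libraries). Total RNA was extracted, and paired-end libraries made from it with a TruSeq RNA kit were sequenced. The study knocked the RNA down to ask what it does for growth and movement of colorectal cancer cells, and mitotic genes bear on the growth side of that question. The groups stand for 1 cell line and transient transfection, and both groups carry a transfected siRNA. The level of AC010789.1 itself was not analysed here, so the knockdown could not be checked in these libraries. The study reports that it verified the knockdown in its sequenced samples.

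Mitotic genes are switched on late in the cell cycle and their RNA falls again as cells leave mitosis, so a dividing population carries much of it and a resting one little. Before mitosis, a repressor complex holds many of these promoters silent through a sequence called the cell cycle genes homology region. Later the MuvB complex, joined first by the transcription factor MYBL2 and then by FOXM1, activates them, often together with the factor NF-Y bound to CCAAT boxes. The set is widely read as a measure of proliferation, because tumour cell lines that divide fast hold these RNAs at high levels. In bulk RNA, fewer cells in mitosis and less RNA per cell cannot be told apart.

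The promoter letters are shown first because the genes share them, and the list was not made from them. RefSeq promoters of 300 bases (250 before and 50 after a start, build GRCh38.p14) were held for 39 of the 47 genes, 49 promoters in all. The cell cycle genes homology region was searched as TTTGAA and the CCAAT box as CCAAT, each on both strands; the E2F core, the binding sequence of factors that drive S phase genes, was searched as GGCGGGA on both strands. TTTGAA was found in 31 of the 49 promoters (63.3%) and in 15.2% of all 35116 promoters of that length. CCAAT stood in 75.5% against 34.6%, and the E2F core in 24.5% against 15.4%. Both TTTGAA and CCAAT were present in 26 of the 49 (53.1%), against 5.9% of all promoters. Among 170 promoters of other mitotic genes TTTGAA stood in 33.5%, CCAAT in 48.2%, the E2F core in 37.1%, above its share here, and TTTGAA with CCAAT in 18.8%. A match to these letters is a description and not a site shown to be bound. Stretches of 30 bases around TTTGAA follow for the 6 genes that had it and the smallest unadjusted p among the genes given with full statistics, 5′ to 3′ on the gene's strand, with the element in capitals in either orientation. MAD2L1 is a checkpoint protein, CDC20 an activator of the anaphase promoting complex, KIF11 a spindle motor, PLK1 a mitotic kinase, TOP2A a topoisomerase and INCENP a scaffold of the chromosomal passenger complex.
CDC20: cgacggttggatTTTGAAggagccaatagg
KIF11: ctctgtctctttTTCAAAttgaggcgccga
MAD2L1: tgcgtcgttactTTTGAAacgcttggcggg
PLK1: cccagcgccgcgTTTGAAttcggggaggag
TOP2A: ctgattggtttaTTCAAAcaaaccccggcc
INCENP: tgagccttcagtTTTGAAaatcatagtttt
These lie at chr1:43358904-43358933 on the plus strand for CDC20, chr10:92593090-92593119 on the plus strand for KIF11, chr4:120066807-120066836 on the minus strand for MAD2L1, chr16:23678848-23678877 on the plus strand for PLK1, chr17:40418030-40418059 on the minus strand for TOP2A and chr11:62123989-62124018 on the plus strand for INCENP.

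MYBL2 and CCNA2, the genes of smallest p among those higher and those lower in si-AC010789.1, had no TTTGAA in this window. Their stretches were chosen after their values were seen. In MYBL2 the capitals mark the E2F core, on the plus strand at chr20:43667064-43667093, and in CCNA2 a CCAAT box in reverse orientation, on the minus strand at chr4:121823922-121823951.
MYBL2: ccgacgcgcttGGCGGGAgatagaaaagtg
CCNA2: gcgagcgctttcATTGGtccatttcaatag

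The 28 genes with TTTGAA had a median log2 fold change (si-AC010789.1 over siRNA-NC) of 0.016 and ran from -0.13 to 0.25. The 11 genes with a promoter and no TTTGAA had a median of 0.11 and ran from -0.30 to 0.64. For the remaining 8 genes, with no promoter entry, the median was 0.15. These groups were not tested against each other.

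The libraries held 11277222 to 13443866 counts, and the 47 genes took from 0.998% to 1.07% of them. Levels are counts per 1000000 (CPM) with the library size scaled by TMM, a normalization that assumes most genes do not move. The lowest count of any of the 47 genes in any library was 263, far above the 3 counts (0.223 to 0.266 CPM) taken as the floor. Over the 6 libraries their mean levels ran from 24.2 CPM to 1380.2 CPM with a median of 137 CPM, against a median of 27.5 CPM over all genes tested. For the 47 genes replicates were close: the median coefficient of variation was 4.90% for siRNA-NC libraries and 4.04% for si-AC010789.1 libraries, against 9.10% and 9.07% over all genes. The labels do not say that the replicates were separate cultures. The study's discussion reports large differences within the group in its sequencing results. It calls the repeats biological and gives cells of different generations in each of them as a possible reason. The p-values measure the spread between these libraries. Of the epithelial markers, KRT8 (444 to 850 CPM) and KRT18 (351 to 535 CPM) were high, whereas EPCAM stayed at 3.1 to 5.59 CPM, CDH1 at 8 to 13 counts and LGALS4 at 0 to 3 counts; KRT19 and VIL1 were not analysed here. Of 6 fibroblast markers 4 were listed, with a summed level of 59.6 to 69.2 CPM over the 6 libraries, most of it COL1A1 and PDGFRB. Of 4 endothelial markers 2 were listed, VWF and CDH5, and summed to 0.873 to 2.51 CPM over the 6 libraries. The other markers were not analysed here, and the part of such cells in the results was not tested.

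The mitotic genes as a set stood at nearly the same level in both groups. Their summed level was 10650, 10394 and 10060 CPM in siRNA-NC replicates 1, 2 and 3, and 10707, 10332 and 10506 CPM in si-AC010789.1 replicates 1, 2 and 3. The groups overlapped, with means of 10368 ± 296 and 10515 ± 188 CPM (SD, n = 3 each). In siRNA-NC replicate 3 the genes were lowest: 16 of the 47 had their lowest value there, and only 10 stood above their own mean over the 6 libraries, against 25 to 33 in the other libraries. Of the 47 genes, 28 had a positive and 19 a negative log2 fold change, and the median was 0.033, against -0.0006 over all genes tested. The median size of the change, without its sign, was 0.086 on the log2 scale, against 0.14 over all genes. Without siRNA-NC replicate 3 the median was 0.019.

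**Figure D1:**
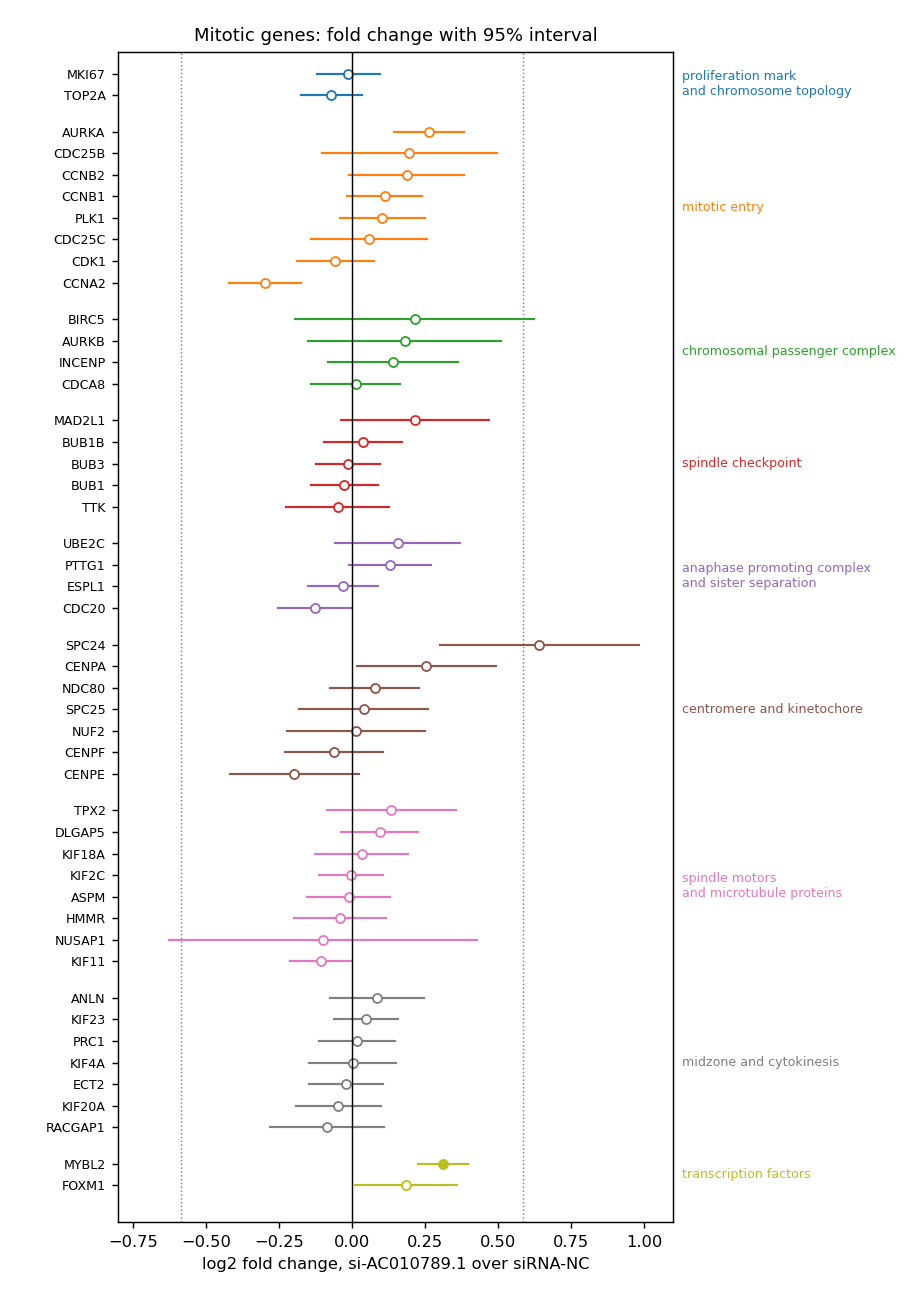
Log2 fold change (si-AC010789.1 over siRNA-NC, horizontal axis) of each of the 47 genes with its 95% interval from edgeR, grouped by role; a filled point passed an adjusted p of 0.05 and dotted lines stand at 1.5-fold either way. MYBL2 alone is filled, SPC24 lies farthest from 0 at 0.64, and 44 of the 47 intervals stay inside the dotted lines.

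Each gene was tested with edgeR's quasi-likelihood test in a fit of all 13764 genes, with p-values adjusted over all of them. Across the transcriptome 130 genes passed an adjusted p of 0.05 (0.944% of those tested), and of the 47 mitotic genes 1 passed, MYBL2, which rose; 0.269% of all genes passed and rose. At an unadjusted p under 0.05 there were 7 mitotic genes (14.9%), beside 17.2% of all genes. MYBL2, AURKA, SPC24, CENPA and FOXM1 were the 5 higher and CCNA2 and CDC20 the 2 lower, where 8.25% and 8.91% of all genes were higher and lower. The 3 values of one group all lay above the 3 of the other for 11 mitotic genes (23.4%), beside 25.1% of all genes. These were the same 7 with CCNB1, CCNB2, UBE2C and KIF11, 8 higher in si-AC010789.1 and 3 lower, where 12.2% and 12.9% of all genes were. Both shares were near those of all genes. For such a gene the exact two-sided permutation test gives 0.1, the smallest p that 3 against 3 libraries allow. By the criteria named in the study (unadjusted p under 0.05 and over 2-fold) 0.777% of all genes and 0 of the 47 were called. DESeq2 called 3.36% of all genes and 4 of the 47: MYBL2, SPC24, CCNA2 and AURKA.

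The intervals of the fold change were narrow for most of the set. For 44 of the 47 genes (93.6%) the whole 95% interval of the fold change lay within 1.5-fold in either direction, which held for 61.9% of all genes. The 47 genes also had higher levels, a median of 137 CPM against 27.5 CPM, and genes of matched level were not compared. The exceptions were SPC24, BIRC5 and NUSAP1. The estimate itself was under 1.2-fold for 43 genes, the other 4 being MYBL2, AURKA, CCNA2 and SPC24.

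**Figure D2:**
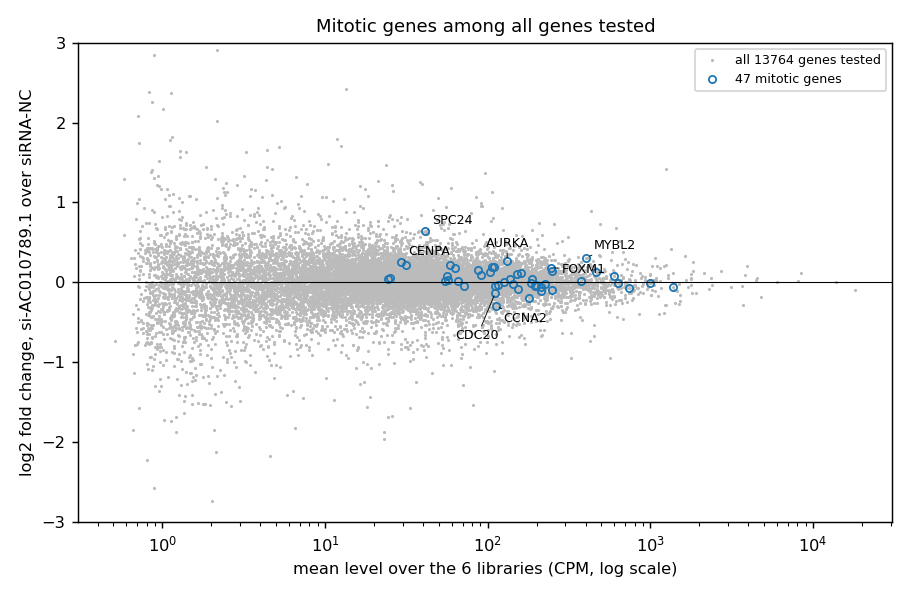
Log2 fold change against mean level (CPM, log scale) for all 13764 genes tested (grey points) and the 47 mitotic genes (blue circles), with the 7 of an unadjusted p under 0.05 named; 7 genes beyond 3 on the log2 scale are not drawn. The mitotic genes sit to the right of most genes and close to 0, from -0.30 for CCNA2 to 0.64 for SPC24.

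MYBL2 and FOXM1, the transcription factors that switch on the late cell cycle programme, both had all si-AC010789.1 values above all siRNA-NC values. MYBL2 (ENSG00000101057.15, chr20:43667019-43716496, plus strand) measured 366, 357 and 359 CPM in siRNA-NC replicates 1 to 3, and 451, 444 and 447 CPM in si-AC010789.1. The groups were far apart for their spread, 361 ± 4.68 against 447 ± 3.46 CPM (SD, n = 3 each). This is a rise of 24.03% (log2 fold change 0.31 ± 0.0355 SE, edgeR adjusted p = 0.022), the 45th smallest p of all genes. When any 1 of the 6 libraries was left out the log2 fold change stayed between 0.30 and 0.32, but the call was lost, with an adjusted p between 0.073 and 0.105. Per kilobase of transcript MYBL2 had the highest level of the 47 genes, 153 CPM per kb. FOXM1 (ENSG00000111206.12, chr12:2857681-2877155, minus strand) measured 249, 208 and 230.2 CPM in siRNA-NC and 272, 254 and 254 CPM in si-AC010789.1. Its groups did not overlap, but the gap was small against the spread within siRNA-NC (log2 fold change 0.18 ± 0.073 SE, edgeR adjusted p = 0.27). Exons of FOXM1 share 781 bases with ITFG2 on the other strand, which had 788 counts over the 6 libraries against 2762 to 3183 for FOXM1 in a single library; whether the counting used strand is not given in the sources used here.

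**Figure D3:**
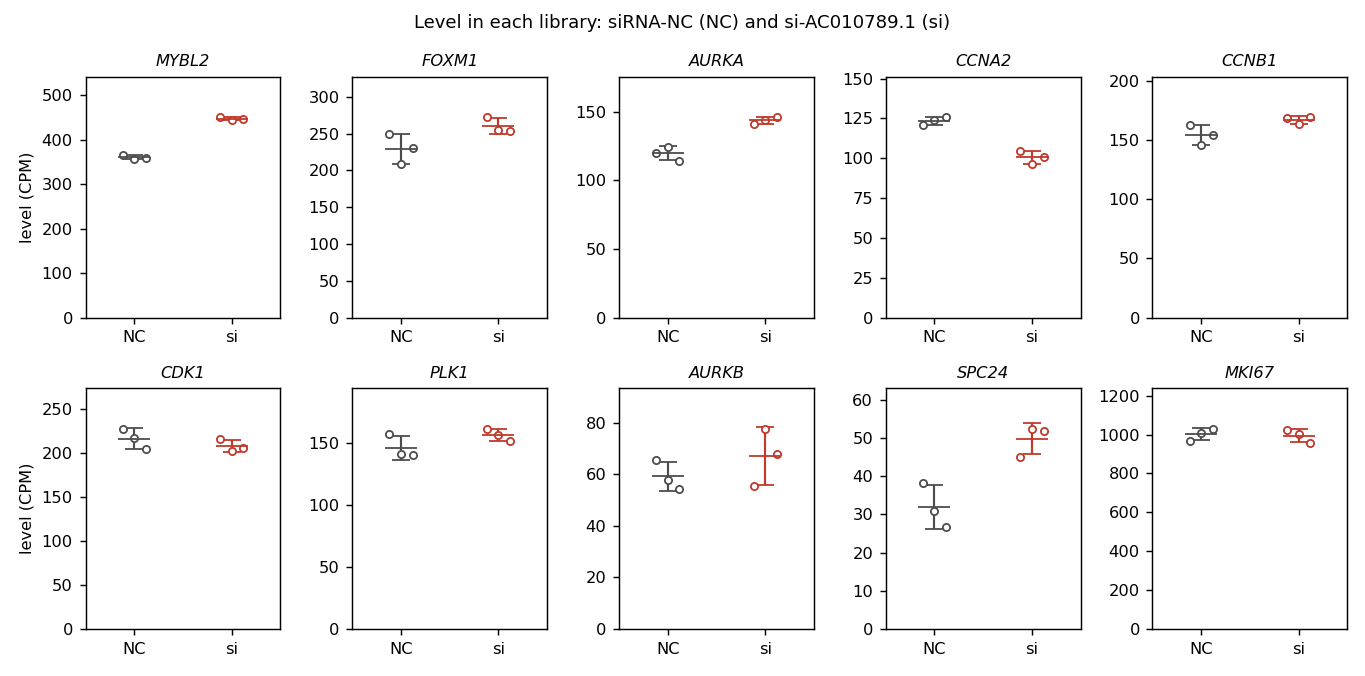
Level (CPM, axes from 0) of 10 mitotic genes in each library (circles), with the group mean and SD (bars), for siRNA-NC (NC, n = 3) and si-AC010789.1 (si, n = 3). MYBL2 (361 against 447 CPM), AURKA (120 against 144 CPM) and CCNA2 (124 against 101 CPM) show a clear gap between groups, whereas CDK1, PLK1, AURKB and MKI67 overlap.

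Among the 8 genes of mitotic entry 6 had a positive log2 fold change, with a median of 0.11, and none passed the adjusted threshold in edgeR. CCNA2 (ENSG00000145386.9, chr4:121816444-121823933, minus strand) encodes cyclin A2, which acts in S phase and at the start of mitosis. It measured 121, 124 and 126 CPM in siRNA-NC and 105, 96.4 and 101 CPM in si-AC010789.1. All 3 si-AC010789.1 libraries lay below all siRNA-NC libraries, where siRNA-NC and si-AC010789.1 had means of 124 ± 2.48 and 101 ± 4.06 CPM (SD, n = 3 each; log2 fold change -0.30 ± 0.051 SE, edgeR adjusted p = 0.064). Leaving out a library gave -0.33 to -0.27. AURKA (ENSG00000087586.17, chr20:56369389-56392337, minus strand), the kinase of the spindle poles, measured 120.1, 124 and 114 CPM against 141, 144 and 146 CPM. Its groups were separate in the other direction (log2 fold change 0.26 ± 0.050 SE, edgeR adjusted p = 0.078), and the values without a library were 0.23 to 0.29. By DESeq2 both passed, with adjusted p-values of 0.0079 for CCNA2 and 0.018 for AURKA.

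CDK1, the kinase that drives cells into mitosis, and its cyclin B partners did not pass the test. CDK1 (ENSG00000170312.15, chr10:60778331-60794852, plus strand) measured 227, 217 and 204 CPM in siRNA-NC and 216, 202 and 206 CPM in si-AC010789.1, and the groups overlapped (log2 fold change -0.057 ± 0.055 SE, edgeR adjusted p = 0.66, 95% interval -0.19 to 0.076). CCNB1 (ENSG00000134057.14, chr5:69167010-69178245, plus strand), cyclin B1, measured 163, 146 and 155 CPM against 168, 163 and 169 CPM. Its groups were just separate (log2 fold change 0.11 ± 0.054 SE, edgeR adjusted p = 0.35). CCNB2, cyclin B2, was separate too, at 90.7 to 109 CPM against 109.5 to 121 CPM with a log2 fold change of 0.19. PLK1 (ENSG00000166851.14, chr16:23677656-23690367, plus strand), the kinase that acts from entry to cytokinesis, measured 157, 141 and 140.1 CPM against 162, 157 and 152 CPM and overlapped (log2 fold change 0.10 ± 0.061 SE, edgeR adjusted p = 0.44). The phosphatases that activate CDK1 were not called either: CDC25B spread from 90.5 to 125 CPM within si-AC010789.1 (log2 fold change 0.20), and CDC25C stayed at 23.3 to 26.9 CPM in all 6 libraries.

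MKI67, which encodes the proliferation antigen Ki-67, did not pass the test. MKI67 (ENSG00000148773.13, chr10:128096659-128126385, minus strand) measured 969, 1007 and 1031 CPM in siRNA-NC and 1023, 1001 and 956 CPM in si-AC010789.1, with overlapping groups. The log2 fold change was -0.013 ± 0.045 SE (edgeR adjusted p = 0.92) and its 95% interval, -0.12 to 0.094, lay well within 1.2-fold either way. TOP2A (ENSG00000131747.14, chr17:40388516-40417950, minus strand), which untangles chromosomes, measured 774, 768 and 722 CPM against 723, 702 and 732 CPM. These overlapped through siRNA-NC replicate 3 (log2 fold change -0.0705 ± 0.044 SE, edgeR adjusted p = 0.47).

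All 4 genes of the chromosomal passenger complex, which corrects wrong attachments of chromosomes to the spindle, had a positive log2 fold change and none passed the test or had separate groups. AURKB (ENSG00000178999.12, chr17:8204733-8210600, minus strand), its kinase, measured 65.4, 58.0 and 54.2 CPM in siRNA-NC and 55.4, 77.8 and 67.9 CPM in si-AC010789.1. The groups overlapped, with a wide spread among the si-AC010789.1 libraries (log2 fold change 0.18 ± 0.14 SE, edgeR adjusted p = 0.56). BIRC5 (ENSG00000089685.14, chr17:78214186-78225636, plus strand), survivin, measured 37.6, 24.3 and 26.0 CPM against 32.5, 34.4 and 34.9 CPM. Its siRNA-NC replicate 1 was above all 3 si-AC010789.1 libraries and the other siRNA-NC libraries below them, which left a wide interval, -0.19 to 0.62 (log2 fold change 0.21 ± 0.17 SE, edgeR adjusted p = 0.58); without that library it was 0.43. INCENP (ENSG00000149503.12, chr11:62123973-62153163, plus strand) measured 258, 207 and 238 CPM against 280, 245 and 251 CPM and overlapped (log2 fold change 0.14 ± 0.093 SE, edgeR adjusted p = 0.49). CDCA8, borealin, stayed at 61.7 to 68.8 CPM in all libraries.

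The spindle checkpoint delays anaphase until every chromosome is attached. Of its 5 genes 2 were higher and 3 lower in estimate, and in each the groups overlapped. MAD2L1 (ENSG00000164109.13, chr4:120055608-120067074, minus strand), which binds and blocks CDC20, measured 60.0, 53.2 and 50.04 CPM in siRNA-NC and 70.8, 60.2 and 58.5 CPM in si-AC010789.1 (log2 fold change 0.22 ± 0.11 SE, edgeR adjusted p = 0.36). Per kilobase it had the lowest level of the 47 genes, 11.4 CPM per kb. The kinases BUB1 and TTK and the adaptors BUB1B and BUB3 had log2 fold changes between -0.049 (TTK) and 0.0375 (BUB1B).

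CDC20 is the target of that checkpoint. CDC20 (ENSG00000117399.13, chr1:43358955-43363203, plus strand) measured 121, 114 and 113 CPM in siRNA-NC and 109, 103 and 107 CPM in si-AC010789.1. The si-AC010789.1 values were all below the siRNA-NC values, with means of 116 ± 4.40 CPM under siRNA-NC and 106 ± 3.22 CPM under si-AC010789.1 (SD, n = 3 each), but the difference did not pass (log2 fold change -0.13 ± 0.0525 SE, edgeR adjusted p = 0.29). A processed copy of CDC20, CDC20P1, had 432 counts over the 6 libraries and a log2 fold change of -0.37; how reads shared by such copies were assigned is not given in the sources used here. UBE2C (ENSG00000175063.16, chr20:45812576-45816957, plus strand), the ubiquitin conjugating enzyme of the anaphase promoting complex, measured 84.1, 82.5 and 81.8 CPM against 84.2, 105 and 87.9 CPM. Its groups were separate only narrowly, with si-AC010789.1 replicate 2 far above the rest (log2 fold change 0.16 ± 0.089 SE, edgeR adjusted p = 0.43). PTTG1, securin, and ESPL1, the separase that securin holds back, had log2 fold changes of 0.13 and -0.031.

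The largest estimate of all belonged to SPC24, a subunit of the NDC80 complex that grips microtubules at the kinetochore. SPC24 (ENSG00000161888.11, chr19:11131520-11155808, minus strand) measured 38.2, 30.9 and 26.8 CPM in siRNA-NC and 45.1, 52.5 and 51.9 CPM in si-AC010789.1. All si-AC010789.1 values lay above all siRNA-NC values, by 55.9% on the mean (log2 fold change 0.64 ± 0.14 SE, edgeR adjusted p = 0.10), and DESeq2 gave an adjusted p of 0.0060.

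For the other subunits of the same complex the groups overlapped. NDC80 measured 54.5, 57.2 and 51.9 CPM against 57.0, 56.7 and 58.9 CPM (log2 fold change 0.077), NUF2 47.2 to 59.9 CPM over all libraries (0.014) and SPC25 22.3 to 26.9 CPM (0.0398). Their 95% intervals reached at most 0.26, below the lower end of that of SPC24, 0.30. SPC24 was picked as the largest of 47 estimates and its interval is not adjusted for that. The difference between the subunits was not tested. CENPA, the histone variant that marks the centromere, measured 30.04, 25.0 and 25.5 CPM against 32.6, 33.2 and 30.3 CPM, separate by a narrow gap (log2 fold change 0.25 ± 0.099 SE, edgeR adjusted p = 0.26). The motor CENPE had an estimate in the other direction, -0.20, with overlapping groups. CENPF, at 1240 to 1463 CPM, had the highest level of the 47 genes in plain CPM, not scaled by transcript length, and a log2 fold change of -0.061. Per kilobase it ranked 4 of the 47, at 134 CPM per kb.

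Of the 8 spindle motors and microtubule proteins 3 were higher and 5 lower in estimate, with a median of -0.0073, and none passed the test. KIF11 (ENSG00000138160.5, chr10:92593286-92655395, plus strand), the motor that pushes spindle poles apart, measured 223, 215 and 218 CPM in siRNA-NC and 199, 199 and 212 CPM in si-AC010789.1. The groups were separate by a small step, with means of 219 ± 4.40 CPM under siRNA-NC and 203 ± 7.22 CPM under si-AC010789.1 (SD, n = 3 each; log2 fold change -0.105 ± 0.044 SE, edgeR adjusted p = 0.30). TPX2 (ENSG00000088325.15, chr20:31739271-31801805, plus strand), which activates the AURKA kinase on the spindle, measured 425, 413 and 485 CPM against 430.4, 504 and 518 CPM. It overlapped (log2 fold change 0.13 ± 0.092 SE, edgeR adjusted p = 0.51), unlike its partner AURKA. The remaining genes, KIF2C, KIF18A, DLGAP5, ASPM and HMMR, lay between -0.041 and 0.094. NUSAP1, a microtubule bundling protein, was the least certain of the 47 genes: it measured 322, 263 and 188 CPM in siRNA-NC and 188, 268 and 266 CPM in si-AC010789.1, with a 95% interval from -0.63 to 0.43.

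In the midzone and cytokinesis class the 7 genes had a median of 0.0023 and ran from -0.086 (RACGAP1) to 0.086 (ANLN), all with overlapping groups. ANLN (ENSG00000011426.10, chr7:36389806-36453791, plus strand), the scaffold of the contractile ring, measured 576, 623 and 540.5 CPM in siRNA-NC and 653, 593 and 601 CPM in si-AC010789.1 (log2 fold change 0.086 ± 0.067 SE, edgeR adjusted p = 0.57). PRC1, which bundles midzone microtubules, the motors KIF4A, KIF20A and KIF23, and ECT2, which activates RhoA at the cleavage site, all lay within 0.05 of 0.

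**Figure D4:**
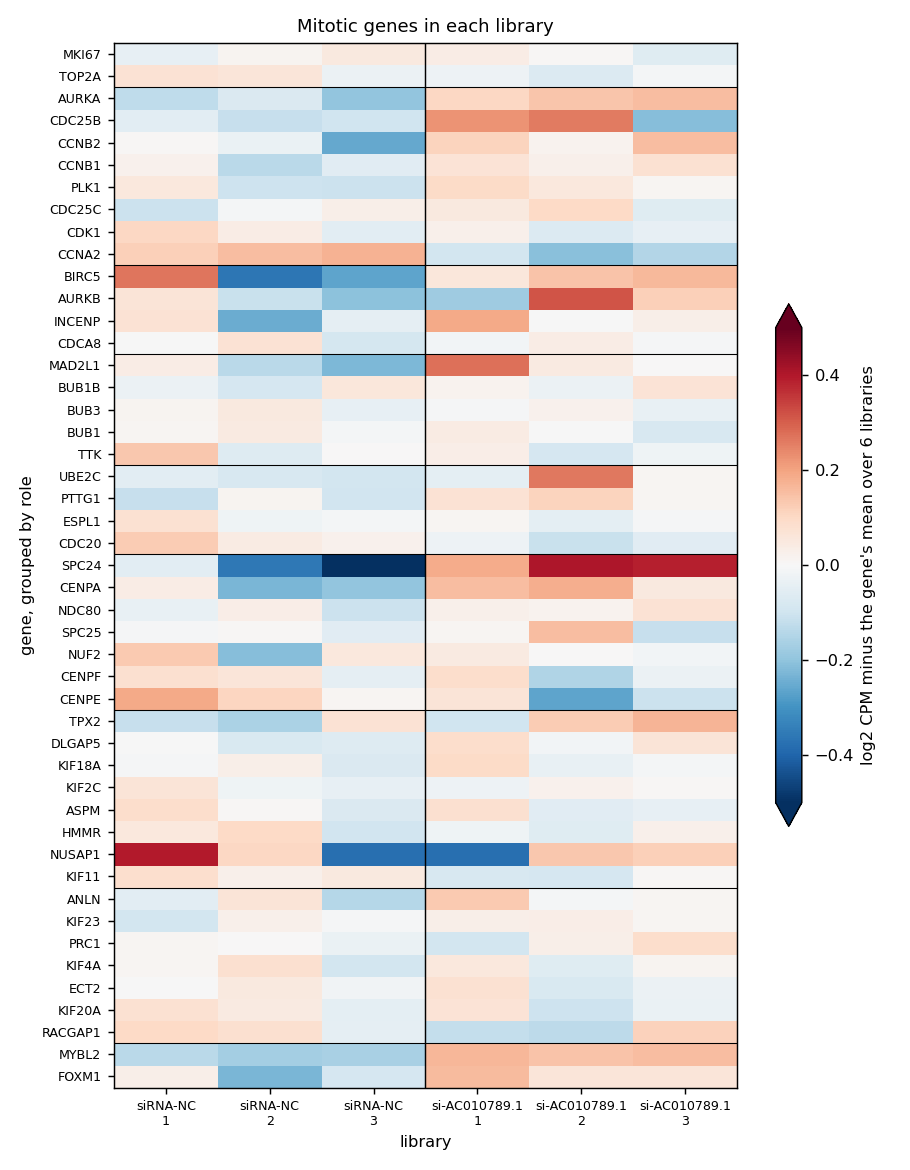
Log2 CPM of each of the 47 genes (vertical, grouped by role) in each library (horizontal) minus the gene's mean over the 6 libraries; the colour scale stops at 0.5 either way. MYBL2, AURKA, SPC24 and CCNA2 change colour at the line between the groups, while most genes show no common pattern and siRNA-NC replicate 3 is pale blue for many genes, with 10 of the 47 above their mean.

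A wider hand-written list held 141 other mitotic genes (further kinases, anaphase promoting complex, checkpoint, kinetochore, cohesin and condensin, spindle, cytokinesis and MuvB genes). All were tested, 94 had a positive log2 fold change and the median was 0.0603. Of these 1 passed the adjusted threshold, and it fell: ARPP19, which in its phosphorylated form blocks the phosphatase that opposes CDK1 (log2 fold change -0.36 ± 0.054 SE, edgeR adjusted p = 0.046). Without any 1 library ARPP19 was not called either, at an adjusted p of 0.092 to 0.15. At an unadjusted p under 0.05 there were 32 (22.7%), 27 higher and 5 lower, beside 17.2% of all genes, 8.25% higher and 8.91% lower. Those of smallest p among the higher were MASTL, the kinase that acts on ARPP19 (0.32, edgeR adjusted p = 0.066), CDC25A, a phosphatase that activates cyclin dependent kinases (0.72, edgeR adjusted p = 0.075), and FZR1, the late activator of the anaphase promoting complex (0.38, edgeR adjusted p = 0.097). Among the lower they were ARPP19, CHMP4B of the abscission machinery (-0.30, edgeR adjusted p = 0.087) and the cohesin loader NIPBL (-0.18, edgeR adjusted p = 0.13). Of the 8 further checkpoint genes all had a positive estimate, with a median of 0.089 and 3 at an unadjusted p under 0.05, where 8.25% of all genes were higher at that p. Only 2 of the 8 (25.0%) had separate groups, beside 25.1% of all genes, and none passed the adjusted threshold. The 27 further kinetochore and centromere genes had a higher median, 0.15, with 19 higher and 8 lower.

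DNA replication genes and G1 genes stand next to mitosis in the cycle. Of 53 replication genes none passed an adjusted p of 0.05 in edgeR, 13 had an unadjusted p under 0.05 (24.5%, 10 higher and 3 lower; 17.2% of all genes), and the median log2 fold change was 0.053. Of 20 G1 genes tested 3 passed, where 0.944% of all genes did: CCND1, cyclin D1, rose (0.41, edgeR adjusted p = 0.047), and CDK6, its kinase partner (-0.43, edgeR adjusted p = 0.022), and CDKN1A, the inhibitor p21 (-0.48, edgeR adjusted p = 0.040), fell. When any 1 library was left out none of the 3 stayed called, with adjusted p-values of 0.077 to 0.16 for CCND1, 0.061 to 0.096 for CDK6 and 0.064 to 0.14 for CDKN1A. CDC25A, named above among the other mitotic genes, is on the G1 list as well. The median over the G1 genes was -0.11. The difference between these lists and the 47 mitotic genes was not tested.

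The table lists counts for single transcripts, and for the mitotic genes these were far less steady than the gene sums. The 47 genes had 350 transcripts listed, from 1 to 26 a gene, of which 223 were tested, and 95.56% of the counts fell in protein-coding transcripts. In 142 of the 223 (63.7%) the highest and lowest libraries of a group were over 2-fold apart, whereas this held for 0 of the 47 gene sums. The transcript with the most counts was the same in all 6 libraries for 28 genes and changed between libraries for 19. No transcript of the 47 genes passed an adjusted p of 0.05 in edgeR (0.0135% of all transcripts did), 12 had an unadjusted p under 0.05 (5.74% of all transcripts), and DESeq2 called 3, of CENPE, ECT2 and RACGAP1 (1.55% of all transcripts to which it gave an adjusted p).

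In MYBL2 and CCNA2 nearly all counts fell in 1 transcript, and its counts followed the gene sum. MYBL2-201 held 89.0% to 99.6% of the counts of MYBL2, with 3952, 4718 and 4675 counts under siRNA-NC against 4589, 5452 and 5455 under si-AC010789.1. CCNA2-202 held 97.9% to 99.9%, with 1363, 1646 and 1640 counts against 1196, 1193 and 1242. SPC24-206 held 74.9% to 94.7% of the counts of SPC24. AURKA was divided otherwise: AURKA-202 took 27.1% to 47.2% and AURKA-206 from 10.03% to 41.0% of its counts, with 349, 258 and 177 counts of AURKA-206 under siRNA-NC against 365, 181 and 738 under si-AC010789.1. The counts of both overlapped between the groups, whereas the sum over all AURKA transcripts did not.

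Some minor transcripts differed much more than their genes. ECT2-210 had 6, 10 and 27 counts under siRNA-NC against 114, 118 and 86 under si-AC010789.1 (edgeR adjusted p = 0.40 over all transcripts), while ECT2 as a whole had a log2 fold change of -0.0201. CENPE-201 had 223, 198 and 17 counts against 17, 6 and 7, so siRNA-NC replicate 3 stood with the si-AC010789.1 libraries (edgeR adjusted p = 0.73). RACGAP1-219 had 3, 9 and 7 counts against 60, 69 and 16. In NUSAP1 the leading transcript itself changed: NUSAP1-212 held 14.9% to 62.7% of the counts, with 1475, 2187 and 460 counts under siRNA-NC against 321, 1764 and 886 under si-AC010789.1. In KIF23 and ECT2 the replicates numbered 1 of both groups stood apart from the other libraries. KIF23-201 had 1510, 450 and 371 counts under siRNA-NC against 1496, 482 and 355 under si-AC010789.1, and KIF23-202 had 103, 1926 and 1978 against 331, 1727 and 1785. ECT2-216 had 617, 1785 and 1231 counts against 492, 2248 and 2340. The way the counting split reads between overlapping transcripts is not given in the sources used here.

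**Figure D5:**
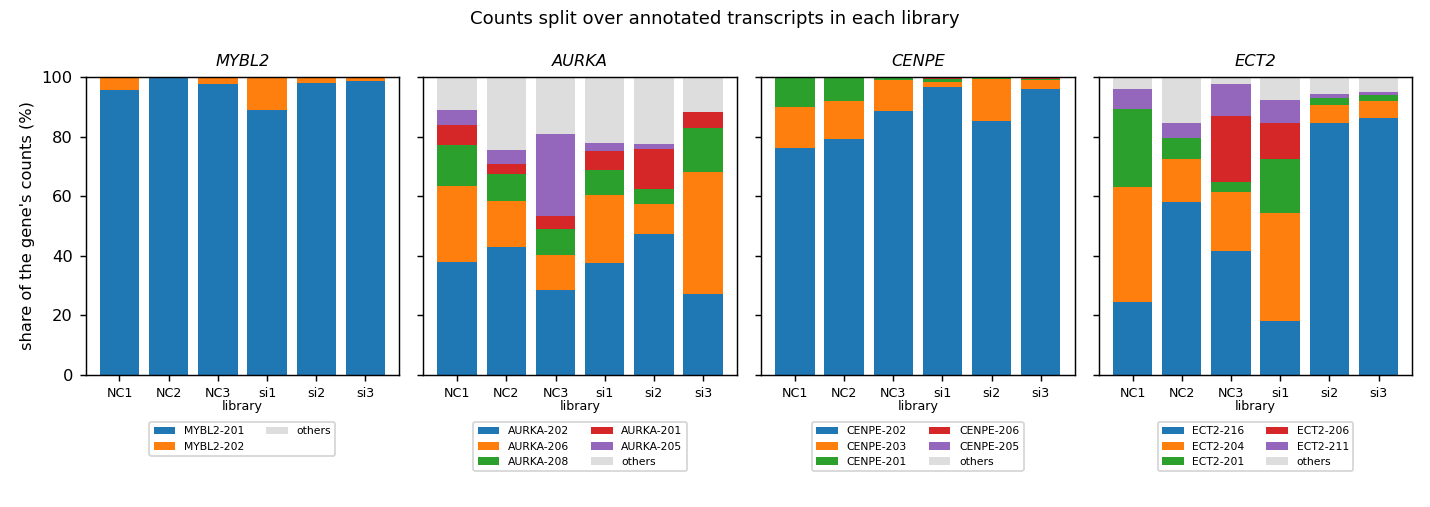
Share of the gene's counts (%, from 0 to 100) in each of its 5 most counted transcripts and in the others, by library (NC, siRNA-NC; si, si-AC010789.1), for MYBL2, AURKA, CENPE and ECT2. MYBL2-201 holds at least 89.0% of MYBL2 in every library and CENPE-202 most of CENPE, whereas the shares of AURKA and ECT2 transcripts differ between replicates of the same group.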

How the data were processed

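The authors deposited raw counts, in whole numbers for each Ensembl transcript, from paired-end TruSeq libraries sequenced on an Illumina NovaSeq. The submitters' processing notes name CASAVA 1.8, TopHat2 2.0.6 and the builds GRCh38 and mm10 without their roles, and the study names Cuffdiff for its comparison; the counting program, its annotation and its use of strand are not given in the sources used here. Of 98886 transcripts, 98803 were matched to GENCODE 29 (GRCh38) and their counts, 99.907% to 99.941% of a library, were summed per gene. Groups were taken from the sample titles. All 6 count columns were used.

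Genes were tested with edgeR 4.0.16 in R 4.3.3 (TMM factors 0.9935 to 1.0073, genes kept by filterByExpr at its minimum count of 10 with a total of 15 or more, then glmQLFit and glmQLFTest without a block), with Benjamini-Hochberg adjustment over all genes and a threshold of 0.05. Intervals are 95% intervals of the fitted log2 fold change, and errors of the fold change are its SE. Levels of different genes were set against each other only as CPM per kilobase of the transcripts' length, weighted by their counts, or as plain CPM where so stated. Transcripts were tested in the same way. The script was tested on simulated data. Alternatives were DESeq2 1.42.0, its size factors in edgeR, quantile normalization with limma 3.58.1, leaving out the filter, keeping genes with a mean of 1 CPM or more, the replicate number as a block, protein-coding transcripts alone, and leaving out each library. Every member is named; full statistics are given for called genes, for the largest change and smallest p of each role class, and for MKI67, FOXM1, MYBL2, CDK1, CCNB1, PLK1, AURKA and AURKB. CENPA, the transcripts of ECT2 and KIF23, CENPE-201, RACGAP1-219 and the transcripts of NUSAP1 were described after their values were seen. The members and all lists were chosen with earlier results of these data known. Floors cover counting error only. Promoter sequences are from RefSeq (GRCh38.p14), and tables and figures were made with matplotlib 3.10.9, scipy 1.17.1, numpy 2.4.6 and pandas 2.3.3 under Python 3.11.15. The values of some further genes that are not members are not reported here.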

Additional observations from a re-analysis of the deposited data

How the results depend on the processing

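Of the 47 genes 31 kept the sign of their log2 fold change under all 13 alternatives, and MYBL2 was called under all but the block and the fits without a library. The other 16 changed sign under some alternative, the largest of them 0.10 in size. With protein-coding transcripts alone the log2 fold changes were 0.0131 for ESPL1, -0.0196 for NUF2, -0.0269 for KIF18A and -0.0038 for KIF23; with quantile normalization ASPM was at 0.0387, and with no filter KIF4A at -0.0054. Without 1 library the ranges were -0.0353 to 0.0125 for MKI67, -0.0291 to 0.0508 for CDCA8, -0.0559 to 0.0050 for BUB1, -0.0390 to 0.0053 for BUB3, -0.0939 to 0.0102 for TTK, -0.0508 to 0.0022 for ESPL1, -0.0823 to 0.0866 for NUF2, -0.0292 to 0.1019 for SPC25, -0.0254 to 0.0305 for KIF2C, -0.0080 to 0.0614 for KIF18A, -0.2832 to 0.0948 for NUSAP1, -0.0562 to 0.0309 for ASPM, -0.0443 to 0.0425 for KIF4A, -0.0238 to 0.0646 for PRC1 and -0.0646 to 0.0151 for ECT2. Among the genes given in full, 11 moved over 1.5 times without a library, with ranges of 0.0617 to 0.2996 for AURKB, 0.0579 to 0.2182 for INCENP, 0.125 to 0.2924 for MAD2L1, 0.0581 to 0.2164 for UBE2C, 0.1183 to 0.2487 for FOXM1, 0.0363 to 0.1398 for ANLN, 0.0716 to 0.1526 for CCNB1, -0.0988 to -0.017 for CDK1, 0.0729 to 0.1598 for PLK1, 0.0816 to 0.2121 for TPX2 and 0.0943 to 0.4335 for BIRC5. The median over the 47 genes stayed between 0.0131 and 0.0508. The 130 genes called became 462 with DESeq2, 69 with no filter, 56 with protein-coding transcripts alone, and 12 to 37 without a library. Of the mitotic genes 4 were called by DESeq2 and 0 by the study's criteria or without any 1 library; at an unadjusted p under 0.05 there were 4 with DESeq2 and 4 (without si-AC010789.1 replicate 2) to 11 (without siRNA-NC replicate 1), in place of 7, where 13.4% of all genes had one with DESeq2 and 13.5% to 14.9% without a library. Genes with separate groups numbered 13 to 18 without a library, with 17 when siRNA-NC replicate 3 was left out and 18 when si-AC010789.1 replicate 3 was, but 33.9% to 35.6% of all genes were separate in those fits, in place of 25.1%. Of the other mitotic genes 1 was called, 5 with DESeq2, and 0 with no filter, with protein-coding transcripts alone or without any library, each of which ends the call of ARPP19. Of transcripts DESeq2 called 3, and 0 to 1 were called without a library (ANLN-202 without si-AC010789.1 replicate 1). The deviations of gene levels in same-numbered replicates had r = 0.11, 0.011 and 0.017 for numbers 1, 2 and 3. Number 1 had the highest r of the 9 pairs, but numbers 2 and 3 stayed under 0.1. The libraries were not treated as paired, but these values do not exclude a pairing by number. With the replicate number as a block 0 genes passed in edgeR, of all genes, of the 47 and of the other mitotic genes, and MYBL2 had an adjusted p of 0.15. At an unadjusted p under 0.05 the block gave 8 of the 47 genes, beside 15.7% of all genes. The causes of these changes were not tested. The lowest count of the 47 genes in a library was 263, and no test of depth was run.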
